A study of Arabidopsis thaliana with 6 samples.

Results

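Of 22746 probe sets on the array other than controls, 6 were annotated to exactly 1 of the cold- and dehydration-related genes COR15A, COR15B, COR47, LTI30, LEA4-5 and M17, with 1 probe set for each gene. They stood for 6 of 13286 genes that had such a probe set, and were followed across 6 single-colour Affymetrix arrays of 10-day-old Arabidopsis thaliana seedlings, 2 arrays for each of 3 groups. The groups were seedlings overexpressing the rice OsTOP6A3 cDNA (named OEA3L5 in the labels), seedlings overexpressing the rice OsTOP6B cDNA (OETOP6B), and wild type. OsTOP6A3 and OsTOP6B encode an A and a B subunit of topoisomerase VI, which cuts a DNA double strand, lets another pass and reseals it. In all groups the seeds were kept in a cold room for 72 h, and the seedlings were then grown under continuous light on agar medium with 2% sucrose, with no cold or drying treatment in the labels. The ecotype is labelled Columbia on 5 arrays, while wild-type replicate 1 carries no such label. They name neither the promoter of the transgenes nor a vector control, and each overexpressor goes by a single name, so subunit and line cannot be told apart.

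Dehydrins and other late embryogenesis abundant (LEA) proteins are hydrophilic, largely unfolded proteins that build up in maturing seeds and in tissues that are chilled or lose water, where they are thought to protect membranes and enzymes. In leaves and seedlings many of their genes are switched on in the cold by the CBF/DREB1 transcription factors, and in drying tissue through abscisic acid. COR47 and LTI30 encode dehydrins, COR15A and COR15B encode small proteins of the chloroplast stroma that stabilise membranes during freezing, LEA4-5 encodes a LEA protein made under water deficit, and M17 is a LEA-type gene of late seed development.

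Deposited intensities are linear values on arrays of unequal brightness, whose medians ran from 66.2 to 103.5. They were turned into log2 after a pseudocount of 16 was added, and quantile normalized, so that the lowest possible value is 4. Probe sets with a mean log2 of at least 4.97, the 25th percentile, were tested with limma over all 6 arrays, and a call required a Benjamini-Hochberg adjusted p under 0.05 over 17059 tested probe sets. Of the 6 genes 5 were tested, while LEA4-5 lay under this limit. Every log2 change below is a difference of group means with n = 2 arrays in each group, with limma's standard error. Both comparisons with wild type share their control arrays. The samples were whole seedlings, in which a change in the share of a cell type and a change in RNA per cell cannot be told apart. The green-tissue gene RCA, with deposited intensities of 6962 to 10082, and the root gene PYK10, with 5084 to 8539, were bright on all 6 arrays, while other markers of root and green shoot differed between the groups and are given beside M17 and COR47.

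M17 was the gene of this group that differed most: it rose in OsTOP6A3 and in OsTOP6B seedlings, against a wild type near the bottom of the scale. Its deposited intensity was 291.0 and 334.1 on the OsTOP6A3 arrays, 287.3 and 382.2 on the OsTOP6B arrays, and 9.1 and 7.2 on the wild-type arrays. All 4 overexpressor arrays therefore stood well above both wild-type arrays, an order that normalized values had, by any margin, for 19.7% of tested probe sets. After normalization the log2 values were 8.06 and 8.30 in OsTOP6A3 seedlings, 7.94 and 8.86 in OsTOP6B seedlings, and 4.69 and 4.61 in wild type. The rise was 3.53 ± 0.27 with OsTOP6A3, which is 11.6-fold with this pseudocount (limma adjusted p = 0.000408). With OsTOP6B it was 3.75 ± 0.27, which is 13.5-fold (limma adjusted p = 0.0003). Ranked by log2 change from the highest with this pseudocount, M17 stood at place 16 of 17059 with OsTOP6A3 and at place 13 with OsTOP6B.

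The size of the M17 rise is poorly fixed because the wild-type signal is so low. The plain ratio of mean deposited intensities was 38.3 for OsTOP6A3 over wild type and 41.1 for OsTOP6B over wild type. With a pseudocount of 1 the log2 change was 4.78 with OsTOP6A3 and 5.00 with OsTOP6B, and with 64 it was 2.21 and 2.41. The wild-type mean of 4.65 lies under the limit for testing, so M17 was tested only through the arrays on which it was high. Within an array, M17 stood at percentiles 74.1 and 77.7 of all probe sets in OsTOP6A3 seedlings, 72.3 and 84.6 in OsTOP6B seedlings, and 18.3 and 16.7 in wild type. These places do not depend on scaling between arrays or on a pseudocount. The OsTOP6B replicates were 0.91 apart on the log2 scale, more than the 95th percentile of such differences over tested probe sets, 0.62.

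Markers of other tissues moved in the same comparisons. Of 3 measured root genes, EXPA7, an expansin gene of root hairs, rose by 1.23 ± 0.16 with OsTOP6A3 (limma adjusted p = 0.00357) and by 1.73 ± 0.16 with OsTOP6B (0.00077). EXPA18, another root-hair expansin gene, was at 0.15 ± 0.15 with OsTOP6A3 (limma adjusted p = 0.601) and rose by 0.81 ± 0.15 with OsTOP6B (0.0141), and PYK10 did not pass in either. Of 6 measured green-shoot genes, LHCB4.2, of the light-harvesting antenna, rose by 0.72 ± 0.16 with OsTOP6A3 and 0.79 ± 0.16 with OsTOP6B (limma adjusted p = 0.0344 and 0.0193). PSAN, a photosystem I subunit gene, was at -0.71 ± 0.16 and -0.83 ± 0.16, and fell in both (limma adjusted p = 0.0327 and 0.0141). The other 4 green-shoot genes did not pass, and the median of the 6 was -0.15 with OsTOP6A3 and -0.20 with OsTOP6B. Over all tested probe sets 9.68% were called with OsTOP6A3 and 14.9% with OsTOP6B. The part of these markers in the M17 result was not tested.

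**Figure D1:**
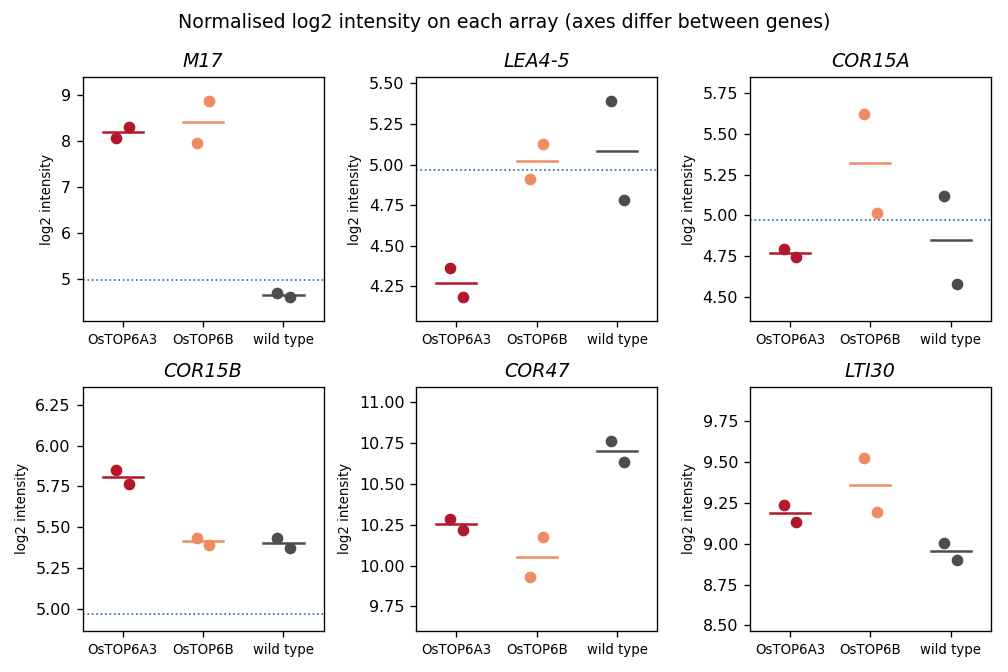
Normalised log2 intensity (vertical axis, a separate range for each gene) of the 6 genes in OsTOP6A3, OsTOP6B and wild-type seedlings; points are single arrays, bars are means of 2 arrays, and the dotted line marks the limit for testing, 4.97. M17 lies between 7.94 and 8.86 on the overexpressor arrays and at 4.69 and 4.61 in wild type, COR47 is lower on the 4 overexpressor arrays, and the COR15B points lie highest in OsTOP6A3 seedlings, at 5.85 and 5.76, a difference that did not pass against either other group.

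The LEA genes of the list that fell under the expression limit were dim in all groups and were not tested. M10, a LEA-type gene that lies next but one to M17 in the TAIR10.1 gene order, was under the limit, with deposited intensities of 3.7 and 3.0 in OsTOP6A3 seedlings, 2.5 and 2.9 in OsTOP6B seedlings, and 3.2 and 7.4 in wild type. LEA4-1, LEA18 and the LEA genes AT3G15670 and AT3G17520 were under it as well, with no array above 12.8. Of these, AT3G15670, singled out after its values were seen, had 12.6 and 6.3 in OsTOP6A3 seedlings, 2.7 and 10.8 in OsTOP6B seedlings, and 1.5 and 1.4 in wild type. Of 11 seed markers only OLEO3, an oleosin gene, had a probe set with 1 gene. Its deposited intensity was 15.5 and 20.5 in OsTOP6A3 seedlings, 21.0 and 15.8 in OsTOP6B seedlings, and 25.5 and 21.9 in wild type. Thus the 1 seed marker measured was dim on all arrays and not higher where M17 was, at -0.43 ± 0.13 with OsTOP6A3 (limma adjusted p = 0.0881) and -0.36 ± 0.13 with OsTOP6B (0.111).

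LEA4-5, whose protein accumulates under water deficit, gave a dim signal everywhere. Its deposited intensity was 5.1 and 2.3 in OsTOP6A3 seedlings, 17.1 and 16.1 in OsTOP6B seedlings, and 22.6 and 9.7 in wild type. The OsTOP6A3 arrays were the lowest, and the OsTOP6B values lay between those of wild type. The untested log2 change was -0.81 with OsTOP6A3 and -0.066 with OsTOP6B. The OsTOP6A3 value was -2.12 with a pseudocount of 1, -0.29 with 64 and -0.52 without wild-type replicate 1. The OsTOP6B value had no settled sign, being 0.050 on the deposited scale and between -0.38 and 0.24 over the alternatives. Relative to the median of all tested probe sets on the deposited scale, 0.18, it was -0.13. When probe sets of any brightness were tested, LEA4-5 did not pass with OsTOP6A3 (limma adjusted p = 0.108). Its wild-type arrays were 0.61 apart on the log2 scale, above the 95th percentile of such wild-type differences, 0.54.

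COR15A and COR15B are neighbouring paralogs, and neither gave a call. COR15A had deposited intensities of 13.1 and 11.6 in OsTOP6A3 seedlings, 41.9 and 14.0 in OsTOP6B seedlings, and 16.6 and 6.8 in wild type. OsTOP6B replicate 1 stood above the rest, and all other arrays were close to the bottom of the scale. Its change was -0.080 ± 0.24 with OsTOP6A3 (limma adjusted p = 0.862) and 0.47 ± 0.24 with OsTOP6B (0.225). Its group means were 4.77 in OsTOP6A3 seedlings, 5.32 in OsTOP6B seedlings and 4.85 in wild type. Only the OsTOP6B mean thus lay above the limit for testing. Of the single arrays, both OsTOP6B arrays and wild-type replicate 1, at 5.12, lay above it. COR15A was not tested without either OsTOP6B array, and was tested under 12 of 16 alternatives for the OsTOP6B comparison. The sign of the OsTOP6A3 value turns with the scaling, being 0.056 on the deposited scale. Relative to the median of all tested probe sets on that scale, 0.34, the COR15A value was -0.28.

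COR15B had deposited intensities of 48.9 and 42.3 in OsTOP6A3 seedlings, 34.4 and 21.4 in OsTOP6B seedlings, and 23.7 and 21.5 in wild type. After normalization the OsTOP6A3 arrays, at 5.85 and 5.76, did not overlap the OsTOP6B arrays, at 5.44 and 5.39, or the wild-type arrays, at 5.43 and 5.37. The replicates of each group were less than 0.1 apart. The change was 0.41 ± 0.12 with OsTOP6A3 and did not pass (limma adjusted p = 0.0778), and it was 0.011 ± 0.12 with OsTOP6B (0.961). Of all tested probe sets 28.6% had both OsTOP6A3 arrays above both wild-type arrays, and 19.1% had them above both OsTOP6B arrays, so the absence of overlap is common here. The probe sequences were not used here, and signal shared by the paralogs was not tested.

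**Figure D2:**
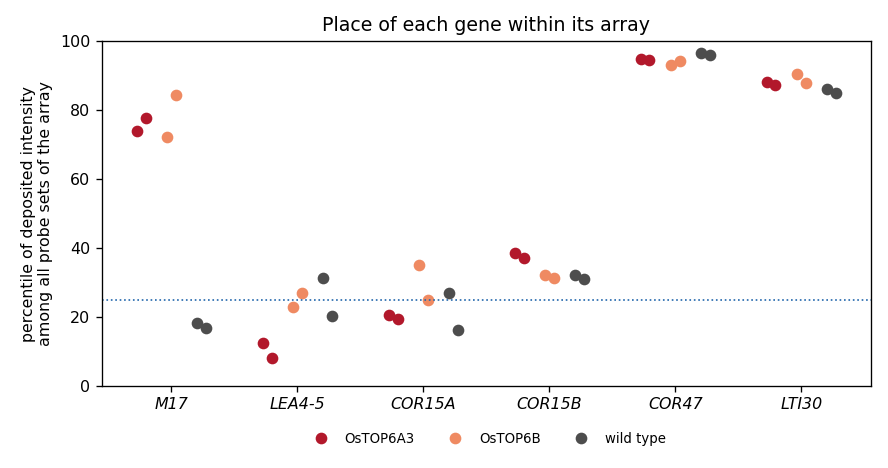
Percentile of the deposited intensity of each gene among all 22746 probe sets of its array (vertical axis), for OsTOP6A3, OsTOP6B and wild-type arrays, 2 points in each group; the dotted line marks the 25th percentile. M17 lies above 72 in the overexpressors, against 18.3 and 16.7 in wild type, whereas COR47 and LTI30 stay above 85 and LEA4-5 and COR15A stay under 35 on all arrays.

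COR47, an acidic dehydrin gene of the CBF regulon, fell in OsTOP6B seedlings. Its normalized log2 value was 10.28 and 10.22 in OsTOP6A3 seedlings, 9.93 and 10.17 in OsTOP6B seedlings, and 10.76 and 10.64 in wild type. All 4 overexpressor arrays were below both wild-type arrays, as they were for 22.6% of tested probe sets. With OsTOP6B the change was -0.65 ± 0.14, that is 1.57-fold lower than wild type (limma adjusted p = 0.0206). With OsTOP6A3 it was -0.45 ± 0.14 and did not pass (limma adjusted p = 0.0848). For the mean of both overexpressors against wild type it was -0.55 ± 0.12 (limma adjusted p = 0.0198), a contrast in which 17.1% of tested probe sets were called. Within the array COR47 stood at percentiles 94.9 and 94.6 in OsTOP6A3 seedlings, 93.2 and 94.4 in OsTOP6B seedlings, and 96.6 and 96.2 in wild type.

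The OsTOP6B change of COR47 stayed between -0.78 and -0.43 over 16 alternatives, while its call depended on the scaling and on single arrays. The deposited intensities were 1430 and 1329 in OsTOP6A3 seedlings, 1141 and 987.3 in OsTOP6B seedlings, and 1469 and 1400 in wild type, so on the deposited scale the OsTOP6A3 change was only -0.056. The median of all tested probe sets was 0.34 higher with OsTOP6A3 on that scale and 0.18 higher with OsTOP6B, and relative to these medians COR47 was at -0.39 and -0.61. The OsTOP6B call was lost without wild-type replicate 1 (-0.58, limma adjusted p = 0.111), without wild-type replicate 2 (-0.71, 0.0636), without OsTOP6B replicate 1 (-0.53, 0.0573) and on the deposited scale (-0.43, 0.408). The root and green-shoot markers given beside M17 moved in the same comparison: with OsTOP6B 2 of 3 root genes rose, and 1 of 6 green-shoot genes rose and 1 fell. In that comparison 14.9% of all tested probe sets were called. The part of these markers in the COR47 result was not tested.

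LTI30, which encodes a dehydrin that binds membranes, had higher values in the overexpressors that did not pass. Its deposited intensity was 684.3 and 611.5 in OsTOP6A3 seedlings, 863.5 and 491.2 in OsTOP6B seedlings, and 422.0 and 403.3 in wild type. After normalization the values were 9.24 and 9.14 with OsTOP6A3, 9.53 and 9.20 with OsTOP6B, and 9.00 and 8.90 in wild type. All overexpressor arrays were above both wild-type arrays, as for 19.7% of tested probe sets. The change was 0.23 ± 0.15 with OsTOP6A3 (limma adjusted p = 0.367) and 0.41 ± 0.15 with OsTOP6B (0.107). The unadjusted 95% interval of the OsTOP6B change ran from 0.062 to 0.75. LTI30 and COR47, both dehydrin genes of the CBF regulon, had values of opposite sign in each comparison, but only the COR47 value with OsTOP6B passed.

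**Figure D3:**
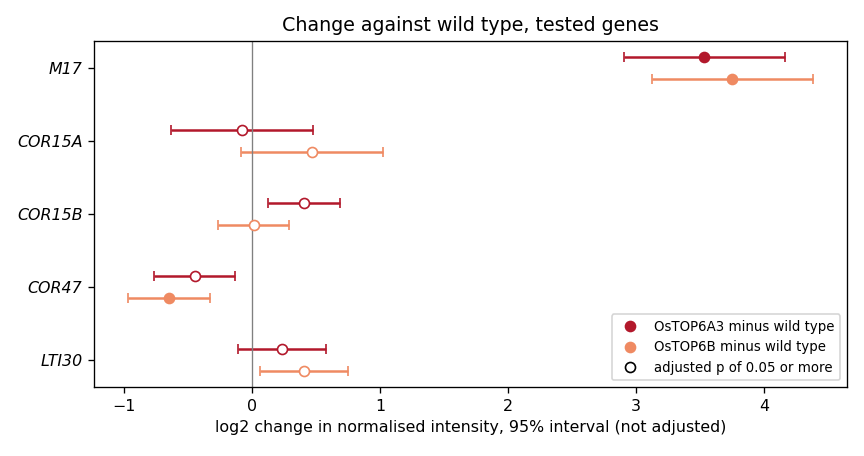
Log2 change in normalised intensity (horizontal axis) of the 5 tested genes in OsTOP6A3 and in OsTOP6B seedlings against wild type, with unadjusted 95% intervals from limma; filled points passed at an adjusted p under 0.05. M17 stands at 3.53 and 3.75, COR47 at -0.45 and -0.65, and the remaining genes lie between -0.080 and 0.47.

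Counted over these genes, 1 of the 5 tested rose and 0 fell with OsTOP6A3, where 9.68% of all tested probe sets were called. With OsTOP6B 1 rose and 1 fell, where 14.9% of all tested probe sets were called. The medians of all tested probe sets were -0.018 with OsTOP6A3 and -0.021 with OsTOP6B.

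**Figure D4:**
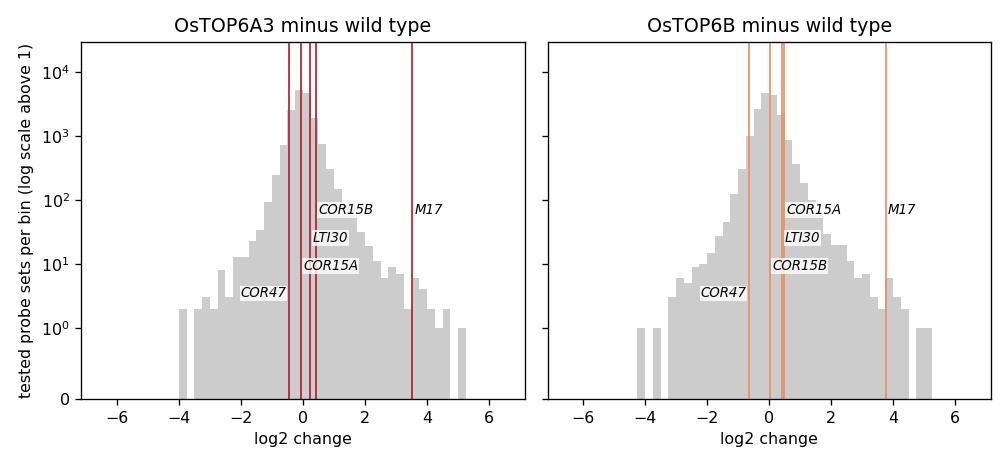
Number of tested probe sets (vertical axis, log scale above 1) by log2 change (horizontal axis, bins of 0.25) in OsTOP6A3 seedlings (left) and OsTOP6B seedlings (right) against wild type, with coloured lines at the tested genes. COR15A, COR15B and LTI30 lie in the bulk of both distributions, and M17 lies in the right tail at 3.53 and 3.75. COR47 lies in the bulk with OsTOP6A3, while with OsTOP6B, at -0.65, it is just beyond the 5th percentile, -0.64.

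Set against each other, OsTOP6A3 and OsTOP6B seedlings gave 0 calls in limma, for these genes and over all 17059 probe sets (0% called), while 1235 probe sets had an unadjusted p under 0.05. The difference of OsTOP6A3 minus OsTOP6B was 0.39 ± 0.12 for COR15B, with a 95% interval of 0.12 to 0.67 and a limma adjusted p of 0.675. It was -0.55 ± 0.24 for COR15A (0.677) and 0.20 ± 0.14 for COR47 (0.765). For LTI30 it was -0.17 ± 0.15 (0.802). For M17 it was -0.22 ± 0.27 (limma adjusted p = 0.862). Its unadjusted 95% interval ran from -0.85 to 0.41 and included 0, so these arrays did not fix the sign of any M17 difference between the overexpressors.

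Among 10 dehydrin genes 6 had a probe set with exactly 1 gene and 5 were tested. With OsTOP6A3 0 of them were called, where 9.68% of all tested probe sets were. With OsTOP6B COR47 fell and 0 rose, where 14.9% of all tested probe sets were called. HIRD11, the gene of a small histidine-rich dehydrin, was at 0.081 ± 0.13 with OsTOP6A3 and 0.13 ± 0.13 with OsTOP6B, with intensities of 5606 or more on all arrays. AT4G38410 was at 0.071 ± 0.20 and 0.55 ± 0.20 (limma adjusted p = 0.854 and 0.107), and AT2G21490 at -0.63 ± 0.24 and -0.46 ± 0.24 (0.143 and 0.230). The median over the 5 tested dehydrins was 0.071 with OsTOP6A3 and 0.13 with OsTOP6B. ERD10, ERD14, RAB18 and XERO1 lacked a probe set of their own in the annotation used here.

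Of 18 LEA genes, COR15A and COR15B among them, 10 had such a probe set. Of these, 6 were under the limit for testing and 4 were tested, of which M17 rose in each overexpressor and 0 fell. The share called over all tested probe sets was 9.68% with OsTOP6A3 and 14.9% with OsTOP6B. LEA26 (AT2G44060), the remaining tested gene, was at -0.10 ± 0.13 with OsTOP6A3 and -0.16 ± 0.13 with OsTOP6B (limma adjusted p = 0.655 and 0.415). Among 21 genes of the CBF regulon the 4 tested were COR15A, COR15B, COR47 and LTI30, described above, with medians of 0.077 and 0.21. The cold-signalling list had 1 tested gene of 23, STZ, a zinc-finger repressor gene, at -0.22 ± 0.20 and 0.023 ± 0.20. The dehydration list had 1 of 14, RD2, at -0.30 ± 0.15 and -0.34 ± 0.15 (limma adjusted p = 0.249 and 0.160). Genes of abscisic acid synthesis and signalling had 0 of 16, so the abscisic acid route was not read here, and of the cold-signalling list none of the CBF genes was.

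The genes on either side were looked up in the TAIR10.1 gene order, 3 to each side. Beside M17, AT2G41250, the gene directly before it, was at 0.22 ± 0.18 with OsTOP6A3 and 0.37 ± 0.18 with OsTOP6B and did not pass (limma adjusted p = 0.498 and 0.212). With M10 under the limit, M17 was the only called gene among the 3 there that had a probe set with 1 gene. Beside the COR15 pair, AT2G42520 rose with OsTOP6A3 by 0.66 ± 0.13 (limma adjusted p = 0.0172) and had 0.43 ± 0.13 with OsTOP6B (0.0573). TBL39, also tested there, was at 0.033 ± 0.15 and -0.081 ± 0.15 and did not pass (limma adjusted p = 0.915 and 0.758). Near LEA4-5, AT5G06790 rose with OsTOP6A3 by 0.91 ± 0.14 (limma adjusted p = 0.00752) and had 0.45 ± 0.14 with OsTOP6B (0.0683). AT5G06770, directly after LEA4-5, was at 0.094 ± 0.15 and 0.45 ± 0.15 and did not pass (limma adjusted p = 0.730 and 0.0792). The 2 tested neighbours of COR47 and the 1 of LTI30 had changes between -0.24 and 0.27, with 0 called. Over all tested probe sets 9.68% were called with OsTOP6A3 and 14.9% with OsTOP6B.

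Likeness of pattern was described by Pearson's r over the 6 arrays, which share 3 groups, so that any gene that differs between the same groups scores high. The genes most like M17 were AT3G13760 at 0.997 and the annotated pseudogenes AT4G08110 at 0.994 and AT3G15310 at 0.993. For M17 only 95 probe sets had a wide enough range over the arrays to be compared, against 6514 for COR47. Of these 95, 7 had an r of at least 0.99. AT3G13760 had log2 values of 5.86 and 6.09 with OsTOP6A3, 5.85 and 6.48 with OsTOP6B, and 4.07 and 4.19 in wild type, and so was also near the floor in wild type and highest in OsTOP6B replicate 2. The genes most like COR47 were AT4G38100 at 0.999, AT5G23890 at 0.997 and AT5G51010 at 0.996, and AT4G38100 had changes of -0.50 with OsTOP6A3 and -0.74 with OsTOP6B. Those most like LTI30 were HMT-1, a homocysteine methyltransferase gene, at 0.997, AT1G69760 at 0.995 and AT5G64100 at 0.991. For COR15B they were AT4G25890 at 0.986, AT4G34670 at 0.979 and AT2G25270 at 0.978, and for LEA4-5 AT2G12240 at 0.983, AT3G62040 at 0.965 and AT5G24870 at 0.958.

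The genes most like COR15A were AT3G26440 at 0.958 and the plastid-encoded genes rpoB, of the plastid RNA polymerase, at 0.943 and ndhK, of the plastid NDH complex, at 0.933. All were highest in OsTOP6B replicate 1, where rpoB read 7.18 on the log2 scale, against 6.38 in OsTOP6B replicate 2. The 25S ribosomal RNA control also differed between these replicates, with deposited intensities of 315 and 46.7. Its part in the COR15A value was not tested. Without OsTOP6B replicate 1 the COR15A change with OsTOP6B was 0.16.

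**Figure D5:**
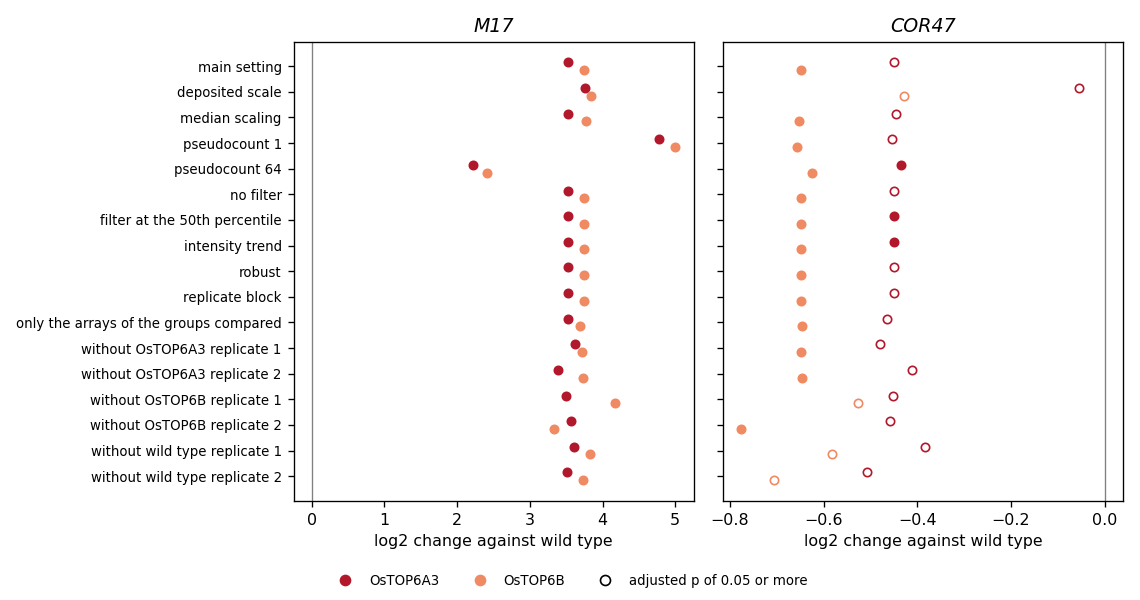
Log2 change against wild type (horizontal axis, a separate range for each gene) of M17 (left) and COR47 (right) in OsTOP6A3 and OsTOP6B seedlings under the main setting and 16 alternatives (rows); filled points passed at an adjusted p under 0.05. M17 passed under all of them, with values from 2.21 to 5.00, while COR47 passed under 12 of 16 with OsTOP6B and 3 of 16 with OsTOP6A3.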

How the data were processed

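Expression was measured in 6 arrays, 2 biological replicates of each group per the labels, which do not say whether replicates came from separate cultures. The p-values set each change against the spread between these arrays, which limma drew towards that of all tested probe sets. The deposited values are 1 linear intensity per probe set and array; how the authors summarised and scaled them is not given here. All columns matched a sample (0 unassigned). After 64 of 22810 probe sets were set aside as controls, log2(intensity + 16) was quantile normalized, because column quartiles were up to 0.54 apart. The filter left out 5687 probe sets.

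Probe sets were named from the platform annotation through gene identifiers of TAIR10.1, used for names and gene order only; 13513 had exactly 1 gene, 503 several and 8730 none listed. limma 3.58.1 (R 4.3.3) fitted group means by lmFit and eBayes without a trend, with 3 residual and 4.61 prior degrees of freedom, and two-sided tests, and was tested on simulated data. The number of arrays limits the precision. The genes and lists were chosen with earlier results of these data known. Named genes were the 6 genes, tested members of the dehydrin, LEA and CBF lists, called members of other lists, the 3 nearest genes on each side, and for each gene the 3 tested single-gene probe sets with the highest r whose range over the arrays was at least 0.5 times its own. Where a list held a single tested gene, that gene is named although it was not called. Flower markers had 0 of 4 genes with a probe set of 1 gene in the annotation used here. Alternatives covered scaling, pseudocount, filter, eBayes options, arrays in the fit, a replicate block and leaving out each array.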

Additional observations from a re-analysis of the deposited data

How the results depend on the processing

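M17 rose and passed under 16 of 16 alternatives with each overexpressor. Without a filter its limma adjusted p was 0.00381 for OsTOP6A3 and 0.00307 for OsTOP6B. The lowest values of all alternatives, 2.20e-22 and 5.93e-23 in limma, came from the deposited scale, where array brightness was left unequal. The count of called genes with OsTOP6A3 was 2 in place of 1 with a pseudocount of 64, a filter at the 50th percentile and an intensity trend, each adding COR47 (adjusted p = 0.0251, 0.0457 and 0.0235). With OsTOP6B, and for the mean of both overexpressors, it was 1 in place of 2 on the deposited scale, where COR47 was lost. Leaving out single arrays gave 1 call throughout for OsTOP6A3, 1 to 2 for OsTOP6B and for the mean of both, and 0 between the overexpressors. LTI30 passed with OsTOP6B at a pseudocount of 64 (0.0465) and with an intensity trend (0.0488). The sign turned for values that did not pass: COR15A with OsTOP6A3 was 0.056 on the deposited scale and ran from -0.36 to 0.19 over left-out arrays, COR15A for the mean of both from -0.079 to 0.47, COR15B with OsTOP6B from -0.020 to 0.042, LEA4-5 with OsTOP6B, which was not tested, from -0.38 to 0.24, and M17 between the overexpressors from -0.68 to 0.24. With the replicate number as a block, called genes numbered 1 with OsTOP6A3, 2 with OsTOP6B, 2 for the mean of both and 0 between the overexpressors; same-numbered arrays deviated together with r of 0.0021, -0.050 and 0.016, and the block moved no call of these genes. Over all probe sets the calls with OsTOP6A3 fell to 1002 without a filter and 560 without OsTOP6A3 replicate 1, against 1652, and with OsTOP6B to 1608 without a filter and 1054 without wild-type replicate 1, against 2540. On the deposited scale 92.1% and 84.5% of calls were rises, against 57.0% and 53.1%. The cause of these shifts was not tested. Low signal over background limits LEA4-5, COR15A and wild-type M17, whose order and folds hold for the pseudocount used.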

Other observations

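KIN1 and KIN2, cold-induced genes of the CBF regulon, share a probe set and so fell outside the single-gene rule. Its deposited intensity was 581 and 539.4 in OsTOP6A3 seedlings, 853.9 and 402.8 in OsTOP6B seedlings, and 600.9 and 711.6 in wild type. Its log2 change was -0.61 ± 0.19 with OsTOP6A3 (limma adjusted p = 0.0954) and -0.38 ± 0.19 with OsTOP6B (0.225), so it did not pass in either comparison. Its sign was that of COR47 and opposite to that of LTI30, which did not pass in either comparison as well.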
